A study of Homo sapiens with 18 samples.

Results

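HOX genes encode homeodomain transcription factors that lie side by side in 4 clusters, HOXA on chromosome 7, HOXB on chromosome 17, HOXC on chromosome 12 and HOXD on chromosome 2. Their levels were examined in 3 human lung cancer cell lines before and after the epithelial-mesenchymal transition (EMT). Every row of the expression table whose symbol is HOX, a cluster letter from A to D and a number was taken, which gave 37 of 19849 genes, with 10 in HOXA, 10 in HOXB, 8 in HOXC and 9 in HOXD. Each was read by 1 probe set, a group of short oligonucleotides on the array. For 11 of the 37, among them HOXB5, HOXB6, HOXB7, HOXB8 and HOXC6, the name of the probe set (_s_at or _x_at) marks oligonucleotides that can match more than 1 transcript, so those values are less certain to come from the named gene alone.

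The number in a HOX symbol gives its paralog group, the position it shares with its relatives in the other clusters. In the embryo, genes of low number are used toward the head and genes of high number toward the tail, and neighbours in a cluster are often switched on or off together within a shared chromatin domain that Polycomb proteins silence and Trithorax proteins keep active. HOX proteins bind DNA together with the TALE homeodomain cofactors of the PBX, MEIS and PKNOX families, and retinoic acid is a known inducer of the anterior genes. In the developing lung HOXA5 and its neighbours act mainly in the mesenchyme, and many adult carcinomas keep a HOX pattern of the tissue they came from.

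A549, HCC827 and NCI-H358 are established lines of human non-small cell lung cancer. Parental cells were grown in RPMI1640 with 10% serum and glutamine, without TGFβ. Their mesenchymal derivatives, labelled EMT, had the same medium with TGFβ at 2 ng/ml for 3 weeks, and were moved to medium without TGFβ on the day before lysis. The paper on these arrays gives 3 weeks in its results. Its methods give 2 to 3 weeks for A549 and 3 weeks or more for HCC827 and NCI-H358. The duration may therefore differ between lines, and its effect was not tested. Each of the 6 groups has 3 arrays, 18 in all, and each line is a single established culture, so a difference between lines is a difference between those cultures. The cells carry no transgene, and no agent other than TGFβ is named in the labels.

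The arrays measured levels on the log2 scale after RMA, a procedure that subtracts background, gives all arrays the same distribution of signal and combines the probes of a set. A difference of 1 is a 2-fold change, and levels of different genes are not compared because each probe set binds with its own strength. Array medians lay between 6.31 and 6.47, and the SD of the log2 difference between arrays of the same group was 0.163 to 0.282 over all genes and 0.160 to 0.339 over the HOX genes. CDH1, the epithelial cadherin, was lower in the mesenchymal cells of every line (log2 fold change -5.81 for A549, -2.95 for HCC827, -3.94 for NCI-H358). CDH2, the mesenchymal cadherin, was higher in every line (1.94, 3.26 and 2.04), and ZEB1, a repressor of CDH1, rose by 4.18 in HCC827 and 3.66 in NCI-H358 and had a difference of 0.79 in A549, under 2-fold. The probe set for VIM, an intermediate filament gene, rose by 2.03 and 2.31 in these 2 lines and had a difference of 0.79 in A549, and SNAI1 had differences of 0.52, 0.85 and 0.92. This VIM probe set is an _x_at. Its means in both states of HCC827 (3.55 and 5.57) lay below the low-end reference described next. So did those of parental A549 (5.58) and parental NCI-H358 (3.61), while mesenchymal A549 (6.37) and NCI-H358 (5.92) were above it. The 4 epithelial markers EPCAM, KRT8, KRT18 and CDH1 stood above that reference in all 3 parental lines. Of the lung markers NKX2-1, SFTPB, SFTPC and SCGB1A1, 3 of 4 lay below it in A549 before EMT, 1 did in HCC827 and 2 did in NCI-H358. All 4 endothelial markers lay below it in all 6 groups, and all 4 haematopoietic markers in 5 groups, with CD14 above it in parental A549.

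The table holds no detection calls, so the low end of the scale was marked in 2 ways. One mark was the 25th percentile of all genes, at 4.65 to 4.69 in the 6 groups. The other was the 95th percentile of 83 olfactory receptor genes, a family used mainly in the nose although some members are known from other tissues, at 5.65 to 5.79, and it is called the reference below. A HOX level below the reference was not read as expression, and where 1 of 2 groups lies below it the difference is also given as a bound, the brighter group's mean over the reference of the dimmer group. By this mark 11 of 37 HOX genes were low in A549 before EMT, 13 were low in HCC827 and 27 in NCI-H358, against 39.1% to 40.4% of all genes in those groups. In these bulk samples, a low level in all cells and expression in few cells cannot be told apart. As shares, 29.7% of the HOX genes were low for A549, 35.1% for HCC827 and 73.0% for NCI-H358. Among parental cells the median HOX level was 6.21 for A549, 5.98 for HCC827 and 4.73 for NCI-H358, while the median of all genes was 6.39, 6.44 and 6.44.

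In 6 genes, HOXC8, HOXC12, HOXD3, HOXD4, HOXD12 and HOXD13, every group mean lay below the reference, and the range of the 6 means was at most 0.49. Another 6 genes, HOXA5, HOXB1, HOXB2, HOXB4, HOXC5 and HOXC11, stood above it in all 6 groups. Of these, HOXB1, HOXB4, HOXC5 and HOXC11 had 6 group means within 0.26 to 0.48 of each other, so they told the lines and the states apart little. The other 25 genes crossed the reference between groups. In HOXD, 7 of 9 genes were low in the parental cells of A549, 8 in those of HCC827 and 7 in those of NCI-H358. In HOXB no gene was low in parental A549 or HCC827, and 6 of 10 were low in parental NCI-H358.

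**Figure D1:**
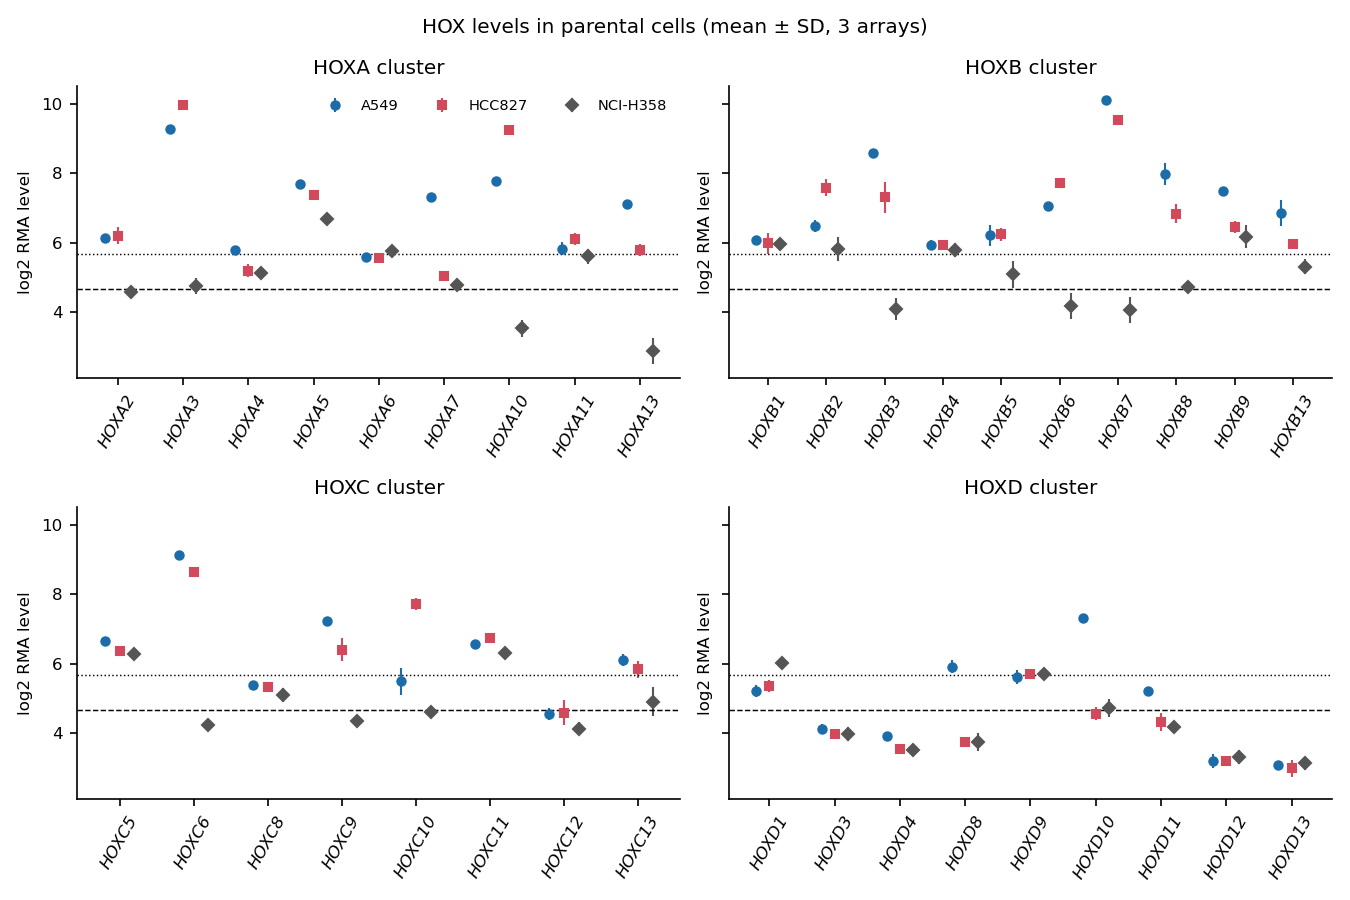
Mean log2 RMA level of 36 of the 37 HOX genes in parental A549 (circles), HCC827 (squares) and NCI-H358 (diamonds), with bars for the SD of 3 arrays, in 4 panels by cluster and in order of paralog group. The dotted line is the olfactory receptor reference and the dashed line the 25th percentile of all genes, each averaged over the 3 lines. HOXB7, HOXC6, HOXA3 and HOXB3 stand above the dotted line in A549 and HCC827 and below the dashed line or near it in NCI-H358.

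Many HOX genes were lower in parental NCI-H358 cells than in the other parental lines. Calls needed a change of more than 2-fold and a limma p, adjusted by Benjamini-Hochberg over all genes, below 0.05. Against A549, 20 of 37 HOX genes were lower in NCI-H358 and 0 were higher, where 9.79% of all genes were called lower and 10.7% higher. Against HCC827, 14 were lower and 0 higher, where 7.91% of all genes were called lower and 7.27% higher. The share of HOX genes called lower was 54.1% and 37.8%, well above the background in both comparisons, which share the NCI-H358 arrays. The median HOX difference was -1.01 against A549 and -0.47 against HCC827, and 32 of 37 genes were below 0 in each, while the median of all genes was -0.02 and 0.03.

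In 17 of the 20 genes called against A549, and in 13 of the 14 called against HCC827, the NCI-H358 mean was below the reference and that of the other line above it. Against A549, 7 of 10 HOXA, 7 of 10 HOXB, 3 of 8 HOXC and 3 of 9 HOXD genes were lower in NCI-H358, and against HCC827 the counts were 5, 6, 3 and 0. By position, 4 of 8 anterior (paralog groups 1 to 3), 8 of 14 central (4 to 8) and 8 of 15 posterior genes (9 to 13) were lower than in A549. Against HCC827 these counts were 5, 5 and 4.

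HOXB7, a central gene, was measured at 10.08, 10.12 and 10.12 on the parental A549 arrays and at 9.44, 9.51 and 9.65 in HCC827. In NCI-H358 it was at 4.07, 3.69 and 4.43, below the reference on all 3 arrays. HOXB7 was at least 21.98-fold higher in A549 (adjusted p = 3.52e-15) and at least 14.8-fold higher in HCC827 than in NCI-H358, with fitted log2 differences of -6.04 and -5.47.

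HOXA10, a posterior gene used in the uterus and the lower spine, was at 7.73, 7.86 and 7.71 in A549, at 9.20, 9.30 and 9.24 in HCC827 and at 3.58, 3.73 and 3.26 in NCI-H358. All arrays of HCC827 lay above those of A549, and all of NCI-H358 lay below both. With NCI-H358 below the reference, HCC827 was at least 12.1-fold higher (adjusted p = 2.76e-17, fitted log2 difference -5.72), and HCC827 was higher than A549 by 1.48 on the log2 scale.

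HOXA3, an anterior gene needed for the thymus and parathyroids, was at 9.21, 9.39 and 9.24 in parental A549, at 10.13, 9.88 and 9.92 in HCC827 and at 4.72, 4.52 and 4.99 in NCI-H358. HOXC6, a central gene, was at 9.20, 9.13 and 9.03, then 8.72, 8.62 and 8.53, and then 4.28, 4.26 and 4.12 in the same order of lines. In both genes the NCI-H358 arrays were below the reference and did not overlap those of the other lines, and A549 was at least 12.4-fold higher for HOXA3 and at least 11.1-fold higher for HOXC6 (fitted log2 differences -4.54 and -4.90).

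HOXB3, anterior, was at 8.68, 8.54 and 8.51 in A549, at 7.81, 7.18 and 6.91 in HCC827 and at 3.98, 4.45 and 3.83 in NCI-H358. The order was A549 over HCC827 over NCI-H358 with no overlap of arrays, and NCI-H358 was below the reference. A549 was at least 7.61-fold higher than NCI-H358 (fitted log2 difference -4.49). With 3 arrays in a group, the precision of these values is limited.

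HCC827 and A549 were closer. In HCC827, 3 HOX genes were higher and 7 lower than in A549, where 10.2% of all genes were called higher and 8.62% lower, so the share of HOX genes was near the background for higher (8.11%) and above it for lower (18.9%). The higher genes were HOXC10 (2.23), HOXA10 (1.48) and HOXB2 (1.11). The lower genes were HOXD10 (-2.74), HOXA7 (-2.27), HOXD8 (-2.17), HOXA13 (-1.34), HOXB3 (-1.28), HOXB8 (-1.14) and HOXB9 (-1.03). HOXD10, HOXD8 and HOXA7 were below the reference in both HCC827 and NCI-H358 and above it in A549, which puts A549 over HCC827 by at least 3.14-fold, 1.20-fold and 3.16-fold. HOXC10 was below the reference in A549, and HCC827 was at least 4.09-fold higher.

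After EMT, 12 of 37 HOX genes were called in at least 1 line, 10 of them in 1 line only, HOXB8 in 2 and HOXA3 in 3. The other 25 were called in none, among them all 6 that were low in every group. The matching counts across lines were not made for all genes, so shares of all genes are given by line only. In A549, 5 rose and 1 fell, where 4.15% of all genes rose and 3.87% fell, so 13.5% of the HOX genes rose. In HCC827, 1 rose and 7 fell, where 4.89% rose and 6.58% fell, so 18.9% of the HOX genes fell. In NCI-H358, 0 rose and 1 fell, where 3.96% rose and 5.42% fell.

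With the thresholds of the study, a change of more than 5-fold with an adjusted p below 1e-05, HOXD10 alone was called in A549, HOXA10 alone in HCC827 and none in NCI-H358, where 1.90%, 2.95% and 2.17% of all genes were called. The median log2 change of the HOX genes was 0.10 for A549, -0.19 for HCC827 and 0.01 for NCI-H358, against -0.02, 0.01 and 0.02 over all genes. The HOXA median was 0.40 in A549 and -0.71 in HCC827, and in HCC827 all 8 HOXC genes were below 0, with a median of -0.33.

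**Figure D2:**
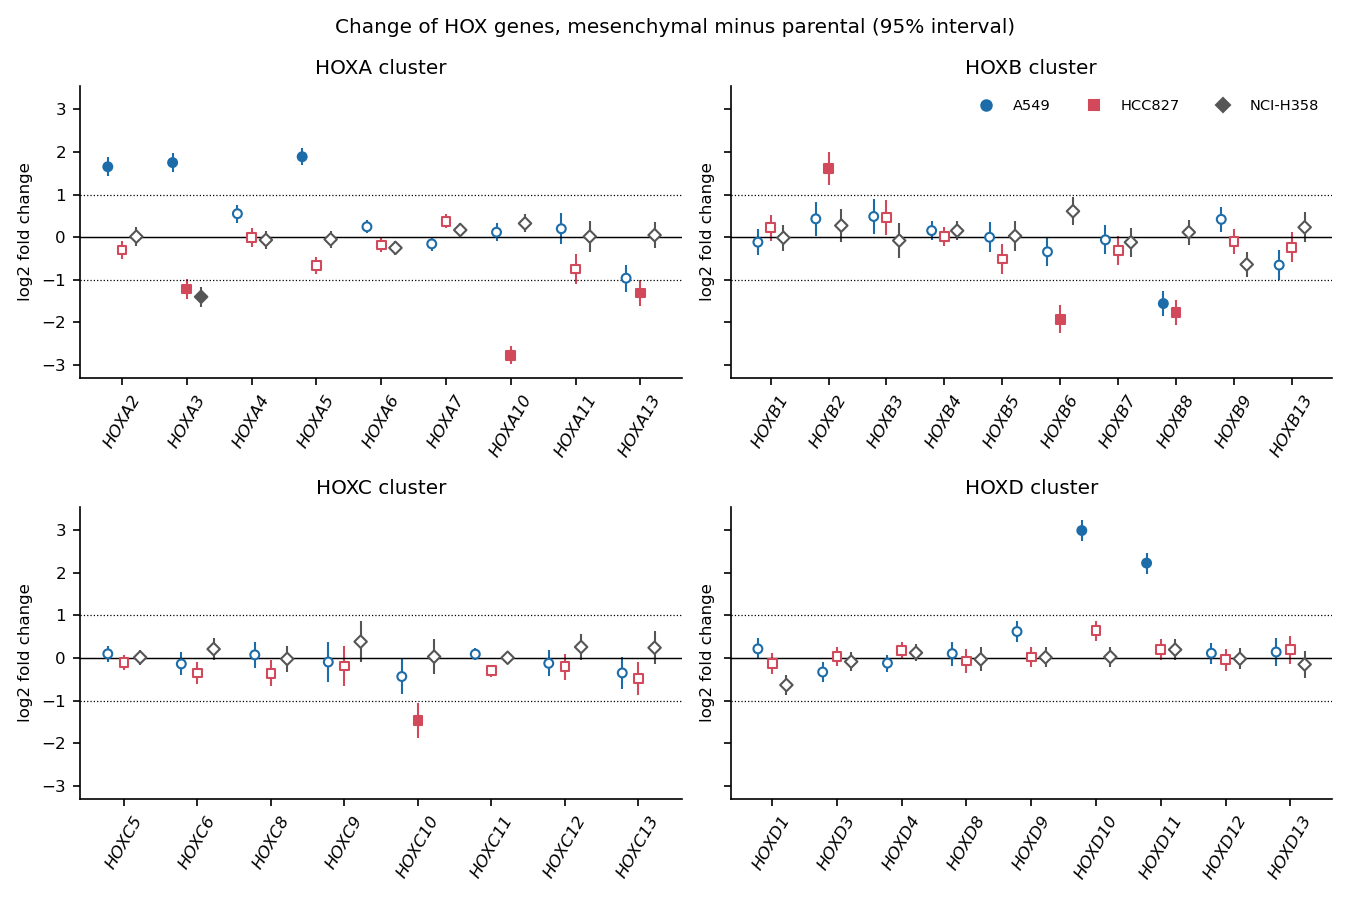
Log2 fold change of 36 of the 37 HOX genes, mesenchymal minus parental, in A549 (circles), HCC827 (squares) and NCI-H358 (diamonds), with bars for the 95% interval and filled symbols for called genes. The dotted lines mark 2-fold. The filled circles of HOXA2, HOXA3, HOXA5, HOXD10 and HOXD11 lie above 1, and the filled squares, apart from that of HOXB2, lie below -1.

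Upstream sequences are shown for the 4 called genes with 1 listed start in the RefSeq promoter table, HOXA2, HOXA13, HOXD10 and HOXD11, so that the windows of neighbours that moved together, HOXD10 and HOXD11, can be read beside those of HOXA2 and HOXA13. Each is the 250 bases before the transcription start, from the RefSeq build GRCh38.p14, written 5′ to 3′ on the strand of the gene. They lie at chr7:27102684-27102933 (minus strand) for HOXA2, chr7:27200092-27200341 (minus strand) for HOXA13, chr2:176116528-176116777 (plus strand) for HOXD10 and chr2:176107030-176107279 (plus strand) for HOXD11. Capitals mark matches on either strand to TGATTNAT, the composite site that HOX proteins bind with PBX, and to CAGAC, the core that SMAD proteins, the effectors of TGFβ, bind.
HOXA2: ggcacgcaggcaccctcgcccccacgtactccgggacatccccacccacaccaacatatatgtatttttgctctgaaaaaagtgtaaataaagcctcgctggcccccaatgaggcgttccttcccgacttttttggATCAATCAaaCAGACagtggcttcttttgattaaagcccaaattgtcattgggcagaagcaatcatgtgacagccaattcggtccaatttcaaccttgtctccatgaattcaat
HOXA13: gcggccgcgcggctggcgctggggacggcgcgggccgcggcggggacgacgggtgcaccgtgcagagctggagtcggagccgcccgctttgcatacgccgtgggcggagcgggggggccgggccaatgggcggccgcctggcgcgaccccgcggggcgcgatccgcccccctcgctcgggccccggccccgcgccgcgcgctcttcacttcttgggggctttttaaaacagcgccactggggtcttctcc
HOXD10: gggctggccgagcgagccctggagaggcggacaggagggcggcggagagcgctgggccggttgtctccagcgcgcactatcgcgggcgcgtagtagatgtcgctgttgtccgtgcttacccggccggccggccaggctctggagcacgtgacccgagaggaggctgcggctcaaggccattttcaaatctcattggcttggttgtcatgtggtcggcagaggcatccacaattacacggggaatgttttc
HOXD11: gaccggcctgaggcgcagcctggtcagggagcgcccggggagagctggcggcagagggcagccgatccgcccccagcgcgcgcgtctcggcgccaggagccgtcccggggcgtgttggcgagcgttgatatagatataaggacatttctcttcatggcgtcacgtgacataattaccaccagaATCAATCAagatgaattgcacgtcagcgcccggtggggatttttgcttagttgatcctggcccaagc

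The HOX-PBX composite was found in the windows of HOXA2 and HOXD11 and not in those of HOXA13 and HOXD10. It occurs in 2.48% of 35116 windows of the same length in the table, and in 2 of the 25 windows listed for 18 of the HOX genes. CAGAC was found in the HOXA2 window and occurs in 38% of all windows, and in 9 of the 25. CAGGTG, an E-box bound by ZEB1 and SNAI1, was searched on both strands and TATAAA on the strand of the gene, and neither was in these 4 windows (17.5% and 6.8% of all windows hold them). The windows differ in base composition, with 40 CG pairs and 78% G or C in HOXA13, 23 CG pairs in both HOXD10 and HOXD11 and 8 in HOXA2, against a median of 11 in all windows. A match is a stretch of letters and not a measured binding site.

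In A549, the largest changes were in 2 neighbours of the HOXD cluster. HOXD10, which shapes the limb and the lower spinal cord, was at 7.24, 7.41 and 7.24 in parental cells and at 10.21, 10.33 and 10.35 in mesenchymal cells. The groups did not overlap, and the gene was 7.99-fold higher (log2 3.00, interval 2.75 to 3.24, adjusted p = 1.17e-12). HOXD11, needed with its HOXA relative for the kidney and forearm, went from 5.26, 5.28 and 5.05, below the reference, to 7.34, 7.47 and 7.47 above it, a fitted change of 2.23 (adjusted p = 7.31e-11) and at least 3.36-fold over the reference.

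The genes beside them in the cluster were not called. HOXD9, on the 3′ side of HOXD10, had a log2 difference of 0.62 and passed the p threshold but not the 2-fold one, HOXD8 had 0.10, and HOXD12 and HOXD13, on the far side of HOXD11, were below the reference in all 6 groups.

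The other rises in A549 were in HOXA, in the anterior genes HOXA2 and HOXA3 and the central gene HOXA5. HOXA5, the lung mesenchyme gene, was at 7.74, 7.76 and 7.57 in parental and at 9.45, 9.70 and 9.59 in mesenchymal cells, a change of 1.89 (interval 1.69 to 2.09, adjusted p = 3.72e-11). HOXA3 went from 9.21, 9.39 and 9.24 to 11.06, 10.96 and 11.08, a change of 1.75, and HOXA2, a gene of the second pharyngeal arch, went from 6.23, 6.13 and 6.02 to 7.76, 7.83 and 7.76, a change of 1.65. In none of these 3 genes did the arrays of the 2 states overlap. The calls rest on the same arrays, so a lack of overlap is no separate evidence, here or for other called genes. The share of all genes without overlap was not counted.

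The genes between and beside them had smaller differences. HOXA4 had a log2 difference of 0.55 and HOXA6 of 0.24, so that the 5 genes from HOXA2 to HOXA6 were all above 0, while HOXA7 was at -0.16 and HOXA10 at 0.11. At the posterior end of the cluster HOXA13, which forms the digits and hindgut, had a difference of -0.97 (interval -1.28 to -0.65), just inside the 2-fold limit.

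HOXB8, a central gene known for keeping blood progenitors dividing when overexpressed, was the gene that fell in A549. It was at 8.33, 7.74 and 7.85 in parental and at 6.43, 6.54 and 6.26 in mesenchymal cells, a change of -1.56 (interval -1.85 to -1.27, adjusted p = 6.19e-08).

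In HCC827 most called genes fell. HOXA10 was at 9.20, 9.30 and 9.24 in parental and at 6.59, 6.33 and 6.48 in mesenchymal cells, 6.86-fold lower (log2 -2.78, interval -2.99 to -2.57, adjusted p = 4.77e-13). In A549 its difference was 0.11, with an interval of -0.10 to 0.33.

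HOXB6, a central gene, was at 7.82, 7.66 and 7.68 in parental HCC827 and at 5.93, 5.55 and 5.88 in its mesenchymal derivative, a change of -1.93 (adjusted p = 1.37e-08). HOXB8 went from 7.14, 6.68 and 6.69 to 5.17, 5.004 and 5.02, below the reference, a fitted change of -1.77 (adjusted p = 8.90e-09), and was at least 2.17-fold higher in parental cells. The 2 states did not overlap in either gene, and HOXB7, which lies between them, had a difference of -0.32 and was far above the reference on all 6 arrays.

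HOXC10, a posterior gene of hindlimb motor neurons, was at 7.88, 7.73 and 7.54 in parental HCC827 and at 6.15, 6.09 and 6.49 after EMT, a change of -1.47 (adjusted p = 7.63e-06). HOXA13 went from 5.80, 5.94 and 5.61 to 4.38, 4.28 and 4.74, a fitted change of -1.32 that ended below the reference on all 3 arrays, where the bound is 1.05-fold. HOXA3 went from 10.13, 9.88 and 9.92 to 8.82, 8.70 and 8.75, a change of -1.22. In all 3 genes each mesenchymal array lay below each parental array, which follows closely from the calls and was not counted over all genes.

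The gene that rose in HCC827 was HOXB2, an anterior gene of the facial nerve nucleus. It was at 7.84, 7.36 and 7.54 in parental and at 9.13, 9.05 and 9.38 in mesenchymal cells, a change of 1.61 (interval 1.21 to 2.00, adjusted p = 1.30e-06). Its neighbour HOXB3 had a difference of 0.46 that did not pass the test. HOXD10 had a difference of 0.64 in HCC827, from 4.56 to 5.20, both below the reference.

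In NCI-H358 HOXA3 alone was called. It was at 4.72, 4.52 and 4.99 in parental and at 3.19, 3.35 and 3.49 in mesenchymal cells, a change of -1.40 (interval -1.63 to -1.18, adjusted p = 1.04e-08), and all 6 values are below the reference. At the 1.5-fold threshold 4 genes were called, and the other 3 were HOXB6, HOXB9 and HOXD1, with differences of 0.61, -0.64 and -0.63. HOXB6 was below the reference in both states (4.18 and 4.79). HOXB9 and HOXD1 went from above it to 5.53 and 5.37, below it. These 3 were chosen after their values were seen. The share of all genes called at the 1.5-fold threshold was not counted.

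**Figure D3:**
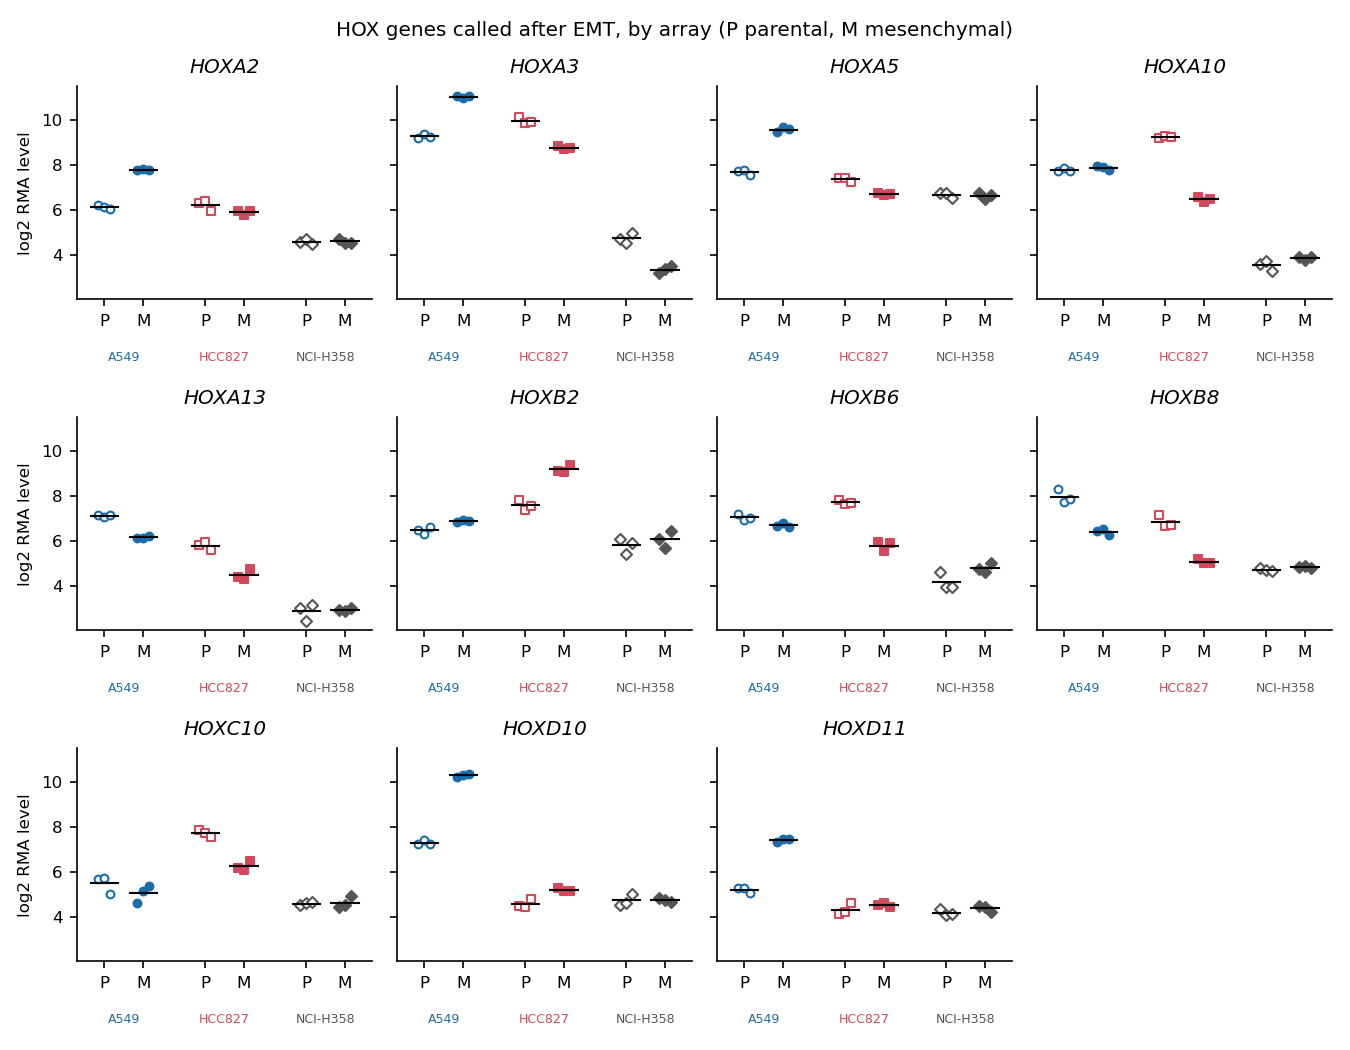
Log2 RMA level on each of the 18 arrays for 11 of the 12 HOX genes called after EMT, with open symbols for parental (P) and filled symbols for mesenchymal (M) cells and a line at each mean of 3 arrays. HOXA3 is higher after EMT in A549 and lower in HCC827 and NCI-H358, and HOXD10 and HOXD11 are called in A549 alone.

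Direct tests of the difference between lines were made in the same limma fit, and called at an adjusted p below 0.05 and a difference above 1. Between HCC827 and A549, 10 HOX genes changed differently, where 13.4% of all genes did. Between NCI-H358 and A549 it was 8, where 12.7% did, and between NCI-H358 and HCC827 it was 7, where 11.0% did. The HOX shares were 27%, 21.6% and 18.9%, and pairs of these comparisons share the arrays of 1 line. For HOXA3 the change in HCC827 minus that in A549 was -2.97 (adjusted p = 9.93e-11), and the change in NCI-H358, where both states are below the reference, minus that in A549 was -3.16 (adjusted p = 4.41e-11), whereas between NCI-H358 and HCC827 it was not called. HOXA10 differed by -2.89 between HCC827 and A549 and by 3.10 between NCI-H358 and HCC827, and HOXA5 by -2.55 and HOXD10 by -2.36 between HCC827 and A549.

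By position, the called genes after EMT were anterior in 2 of 8 (higher) in A549, 1 higher and 2 lower in HCC827 and 1 lower in NCI-H358. Of the 14 central genes, 1 was higher and 1 lower in A549 and 2 lower in HCC827, and of the 15 posterior genes 2 were higher in A549 and 3 lower in HCC827. Within paralog group 10, HOXA10 and HOXC10 fell in HCC827 and HOXD10 rose in A549, and within group 2, HOXA2 rose in A549 and HOXB2 in HCC827. After EMT the number of HOX genes below the reference was 9 for A549, 17 for HCC827 and 31 for NCI-H358, against 11, 13 and 27 before. As shares after EMT these were 24.3%, 45.9% and 83.8%, where 42.2%, 40.7% and 40.9% of all genes were below it. The HCC827 share was thus near that of all genes. The reference itself was higher in the mesenchymal group of each line, at 5.79, 5.72 and 5.73 against 5.68, 5.65 and 5.65.

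**Figure D4:**
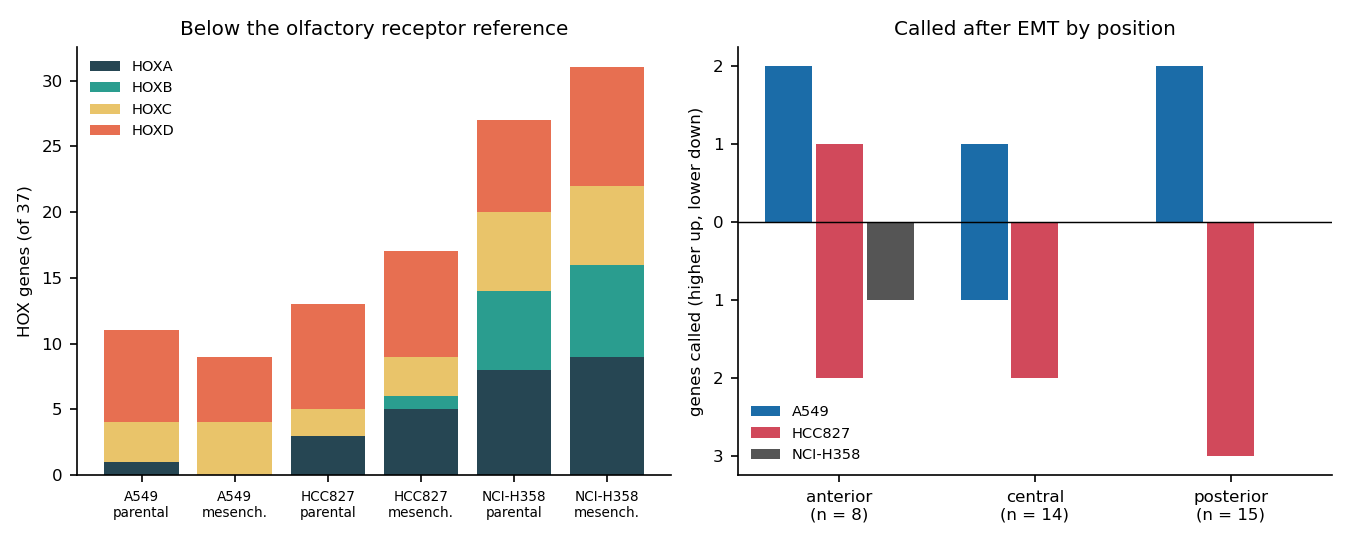
Left, number of HOX genes of each cluster with a group mean below the olfactory receptor reference, of 37, in the 6 groups. Right, number of HOX genes called higher (bars up) and lower (bars down) after EMT by position in A549, HCC827 and NCI-H358. Bars for NCI-H358 reach 27 and 31 genes on the left.

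Genes that act with or on the HOX clusters were counted from lists, to be read against the shares of all genes that rose and fell, which were 4.15% and 3.87% for A549, 4.89% and 6.58% for HCC827 and 3.96% and 5.42% for NCI-H358. Of 11 TALE cofactors, 2 rose and 2 fell in A549, 1 rose in HCC827 and 2 fell in NCI-H358. PBX3 rose by 1.58 in A549 and 1.45 in HCC827, MEIS1 rose by 1.36 in A549, and PKNOX2 changed by -2.82 in NCI-H358. PKNOX2 went there from 5.83, little above the reference, to 3.01, below it, so the size of its fall is uncertain.

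Of 27 genes of Polycomb and of methylation of histone H3 at lysine K27, 1 rose in A549, 3 rose in HCC827, and 1 rose and 1 fell in NCI-H358, and 1 gene of 27 is near the share of all genes. JARID2, a partner of the Polycomb complex PRC2, rose in all 3 lines (2.10, 1.64 and 1.30). EED, a core subunit of that complex, rose by 1.18 and RING1 by 1.02 in HCC827, and PCGF5 changed by -1.16 in NCI-H358. The PCGF5 means there, 4.87 before and 3.71 after EMT, were both below the reference, so this was not read as a change of expression. Of 11 Trithorax and K27 demethylation genes, KDM6B, a demethylase, rose by 1.29 in A549 and KDM6A, its relative, changed by -1.19 in NCI-H358. The medians of both lists were within 0.17 of 0 in every line, with all genes within 0.02.

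Of 18 measured genes of retinoic acid signalling and of the CDX factors, 4 rose and 1 fell in A549, 1 rose and 3 fell in HCC827, and 3 fell in NCI-H358. ALDH1A3, which makes retinoic acid, fell in all 3 lines (-1.13, -3.26 and -5.42), and in NCI-H358 it ended at 5.56, below the reference. CYP26A1, which breaks retinoic acid down, changed by -3.33 in HCC827, and CRABP2, a carrier of it, by -2.49 in HCC827 and -1.18 in NCI-H358. Of 10 measured genes that flank the clusters, SKAP2, beside the HOXA cluster, rose by 1.21 in A549 and changed by -1.55 in NCI-H358, and the other 9 were called in no line.

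Of 8 noncoding or other transcripts named for the HOX clusters, a list put together after the table was seen, 2 fell in HCC827 and none was called in the other lines. HOXA-AS2, transcribed from the HOXA cluster, changed by -2.35 and HOTAIR, from the HOXC cluster, by -1.67. HOXA3, a neighbour of HOXA-AS2, fell in HCC827 as well, and the other 6 transcripts were called in no line.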

How the data were processed

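RNA of 18 cultures was hybridized to Affymetrix U133 Plus 2.0 arrays, and the 3 samples of each of the 6 groups were, per a figure legend of the paper on these arrays, separate biological samples made at the same time. The deposited log2 values come from RMA normalization by the authors and cover 19849 genes, each read by 1 probe set. The rule that chose it was not found in the sources used here. No further columns were in the table (0 without a sample). Gene IDs were matched to the RefSeq gene table (19326 of 19849, and all 37 HOX genes), whose order gave the neighbours.

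All arrays were fitted in 1 limma model (version 3.58.1 in R 4.3.3, lmFit and eBayes) with 6 groups and no covariate, and p values were adjusted by Benjamini-Hochberg over all genes of each contrast. Genes were called at a change of more than 2-fold with an adjusted p below 0.05. For a single gene, the smallest p of an exact two-sided permutation of 3 against 3 arrays is 0.1. The steps were tested on simulated data.

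The genes named were HOX genes called after EMT, with values by array for these and for up to 6 with the largest parental differences, and up to 4 called genes with the largest change in each other list. Other HOX genes were named after their values were seen. Values of some genes are not reported here, and the counts include them. The HOX genes and all lists were chosen with earlier results of these data known. The alternatives were a fold above 1.5, the thresholds of the study, a filter on dim genes and an intensity trend. A fit of the groups of each contrast alone, median centring and the methods' t-test were also used. Each array was left out in turn, and the first parental arrays of all lines were left out together. Other probe sets of these genes were not analysed here.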

Additional observations from a re-analysis of the deposited data

Results flagged for a closer look

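The change after EMT differed between lines in 23 tests of 12 HOX genes, by the limma test of the difference itself. Each value is the log2 change in the line named first minus that in the line named second.

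Between HCC827 and A549 the change was lower in HCC827 for HOXA3 (-2.97), HOXA10 (-2.89), HOXA5 (-2.55), HOXD10 (-2.36), HOXD11 (-2.03), HOXA2 (-1.96), HOXB6 (-1.59) and HOXC10 (-1.03), and higher for HOXB2 (1.18). The adjusted p was 0.0062 for HOXC10 and 0.00145 for HOXB2, and lower for the other 7.

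Between NCI-H358 and A549 it was lower in NCI-H358 for HOXA3 (-3.16), HOXD10 (-2.97), HOXD11 (-2.04), HOXA5 (-1.94), HOXA2 (-1.64) and HOXB9 (-1.06), and higher for HOXB8 (1.68) and HOXA13 (1.01). Of these, HOXA2, HOXA3, HOXA13, HOXB8, HOXD10 and HOXD11 were below the olfactory receptor reference in both states of NCI-H358. HOXB9 was called after EMT in no line, with changes of 0.42 in A549 and -0.64 in NCI-H358.

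Between NCI-H358 and HCC827 it was higher in NCI-H358 for HOXA10 (3.10), HOXB6 (2.54), HOXB8 (1.88), HOXC10 (1.502) and HOXA13 (1.36), and lower for HOXB2 (-1.33). Of these, HOXA10, HOXA13, HOXB8 and HOXC10 were below the olfactory receptor reference in both states of NCI-H358, as was HOXB6.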

How the results depend on the processing

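With a fold above 1.5 in place of 2, 10 HOX genes were called after EMT in A549 and 4 in NCI-H358, 17 between parental HCC827 and A549, and 14 and 11 changed differently between NCI-H358 and A549 and between NCI-H358 and HCC827. With the thresholds of the study 1, 1 and 0 were called after EMT in A549, HCC827 and NCI-H358, and 1, 12 and 9 between parental HCC827 and A549, NCI-H358 and A549, and NCI-H358 and HCC827. The corresponding counts of different changes were 4, 2 and 2. At the thresholds of the study, 1.90%, 2.95% and 2.17% of all genes were called after EMT in A549, HCC827 and NCI-H358. The other shares of all genes at these thresholds were not counted, so those counts are not read against a background. Leaving out 1 array at a time gave 6, 8 and 1 genes after EMT in every fit. It gave 9 to 12, 17 to 21 and 14 to 15 between the parental lines, and 9 to 11, 6 to 9 and 7 for the different changes. Of 390 values of the 15 changes called after EMT under the alternatives, 377 kept their direction and their side of the threshold, and 13 kept their direction and missed the thresholds of the study. None reversed. The methods' t-test with Benjamini-Hochberg adjustment gave 6, 8, 1, 10, 20 and 14 genes, as in limma. Median centring moved the median of all genes by at most 0.068 and turned the sign of no called gene. The filter on dim genes left 14886 genes, 31 of them HOX genes. No paired analysis was possible because the labels number arrays and not replicates. Signal over background limits the genes below the olfactory receptor reference.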
